A study of Oryza sativa with 5 samples.

Results

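The distal parts of rice chromosomes 2, 4 and 6 were compared for 2 histone marks in male meiocytes. They were defined by position alone: chromosome 2 from 18 to 34.9 Mb, chromosome 4 from 17.75 to 34.5 Mb and chromosome 6 from 16.3 to 30.2 Mb, and a peak belonged to a part if its midpoint lay there. The 3 parts span 47.55 of the 372.8 Mb covered by the peak lists and hold 14993 of the 96576 peaks in the 4 lists. Of these, 5421 lay on chromosome 2, 5954 on chromosome 4 and 3618 on chromosome 6. Positions are those of the peak lists. Their genome build is not stated in the labels or the lists, so no gene is assigned to any position, no sequence was read, and the labelled cell type could not be checked against marker genes.

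The study profiled H3K27me3 and H3K4me3 by chromatin immunoprecipitation and sequencing in rice (Oryza sativa) pollen mother cells at early prophase I of meiosis, starting from small numbers of cross-linked cells. Each mark has 2 libraries (replicates 1 and 2), which the labels describe as biological replicates without saying whether they came from separate plants. There was no treatment and no mutant. The 1 input library is not analysed here, so the comparisons run between parts of the genome within each library and between the 2 marks. Peaks come from a population of cells, and a mark in fewer cells cannot be told apart from a weaker mark in all of them.

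H3K4me3 is trimethylation of lysine 4 on histone H3 and sits as narrow peaks at the starts of active genes in plants as in animals. H3K27me3 is trimethylation of lysine 27, laid down by Polycomb repressive complex 2, and in plants covers the bodies of silenced genes, many of them developmental regulators, as well as longer domains. Rice descends from a grass ancestor that underwent a whole-genome duplication, and chromosome 2 carries blocks that were duplicated onto chromosomes 4 and 6. The question was how alike these arms are in both marks. The duplicated blocks were not located or aligned here. Steps and stretches of the arms are therefore compared by position and are not matched duplicated segments.

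The distal parts held 2966 peaks of H3K27me3 replicate 1, 2897 of H3K27me3 replicate 2, 4752 of H3K4me3 replicate 1 and 4378 of H3K4me3 replicate 2. Replicate 1 peaks were wider than replicate 2 peaks for both marks over the whole lists, with medians of 733 bp and 619 bp for H3K27me3 and 570 bp and 430 bp for H3K4me3. Read depth is unknown, and peak number and width depend on depth and on the caller's settings, so every ratio below was taken within 1 library. For regions of a mark, bases covered in both replicates were used. With 2 libraries a mark, the smallest two-sided p of an exact sign-flip permutation test is 0.5, so no difference in any part can pass a threshold. What can be said is whether both libraries moved the same way, which they did in 49 of the 60 comparisons made (25 of 30 against the rest of the genome and 24 of 30 between parts).

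The distal part of chromosome 4 was the richest of the 3 in both marks, that of chromosome 2 came next, and that of chromosome 6 was close to the genome at large. On chromosome 4, H3K27me3 peaks covered 9.85% and 8.10% of the part in replicates 1 and 2, against 6.60% and 5.46% of the rest of the genome, which is 1.49- and 1.48-fold. H3K4me3 peaks covered 7.25% and 5.16% of it, against 4.94% and 3.49% of the rest, which is 1.47- and 1.48-fold. Against this reference both marks were thus in excess by nearly the same factor on this arm. The mean log2 ratio was 0.57 ± 0.0067 for H3K27me3 and 0.56 ± 0.0069 for H3K4me3 (SD, n = 2 libraries each). At −log10 q ≥ 5 these ratios were 0.72 and 0.54, so the factors were no longer as close. On chromosome 2, H3K27me3 covered 9.05% and 7.16% of the part (1.37- and 1.31-fold over the rest) and H3K4me3 6.78% and 4.91% (1.37- and 1.40-fold), with log2 ratios of 0.42 ± 0.045 and 0.47 ± 0.024. On chromosome 6, H3K27me3 covered 7.19% and 6.07% (1.09- and 1.11-fold, log2 0.14 ± 0.022), and H3K4me3 covered 5.01% and 3.51% (1.01- and 1.00-fold, log2 0.012 ± 0.0092). For each of these 6 comparisons the exact sign-flip permutation p was 0.5, the smallest possible. The sign of the chromosome 6 value for H3K4me3 was not stable: with borders moved inward by 500 kb the mean log2 ratio was -0.045, and with a stricter peak threshold, −log10 q ≥ 5, it was -0.011.

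Peak density gave the same order. The chromosome 4 part held 69.0 and 67.0 H3K27me3 peaks per Mb and 115.6 and 103.8 H3K4me3 peaks per Mb in replicates 1 and 2. The chromosome 2 part held 63.3 and 58.8 H3K27me3 peaks per Mb and 102.8 and 95.9 H3K4me3 peaks per Mb. The chromosome 6 part held 53.2 and 56.2 H3K27me3 peaks per Mb and 77.6 and 73.3 H3K4me3 peaks per Mb, against 51.7 and 50.9, and 77.4 and 70.8, in the rest of the genome. On chromosomes 2 and 4 the H3K27me3 excess was larger in covered length than in peak number (1.23- and 1.15-fold in number on chromosome 2, and 1.34- and 1.32-fold on chromosome 4), whereas for H3K4me3 on both chromosomes the folds of number and length lay close together (1.33- and 1.35-fold in number on chromosome 2, and 1.49- and 1.47-fold on chromosome 4).

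**Figure D1:**
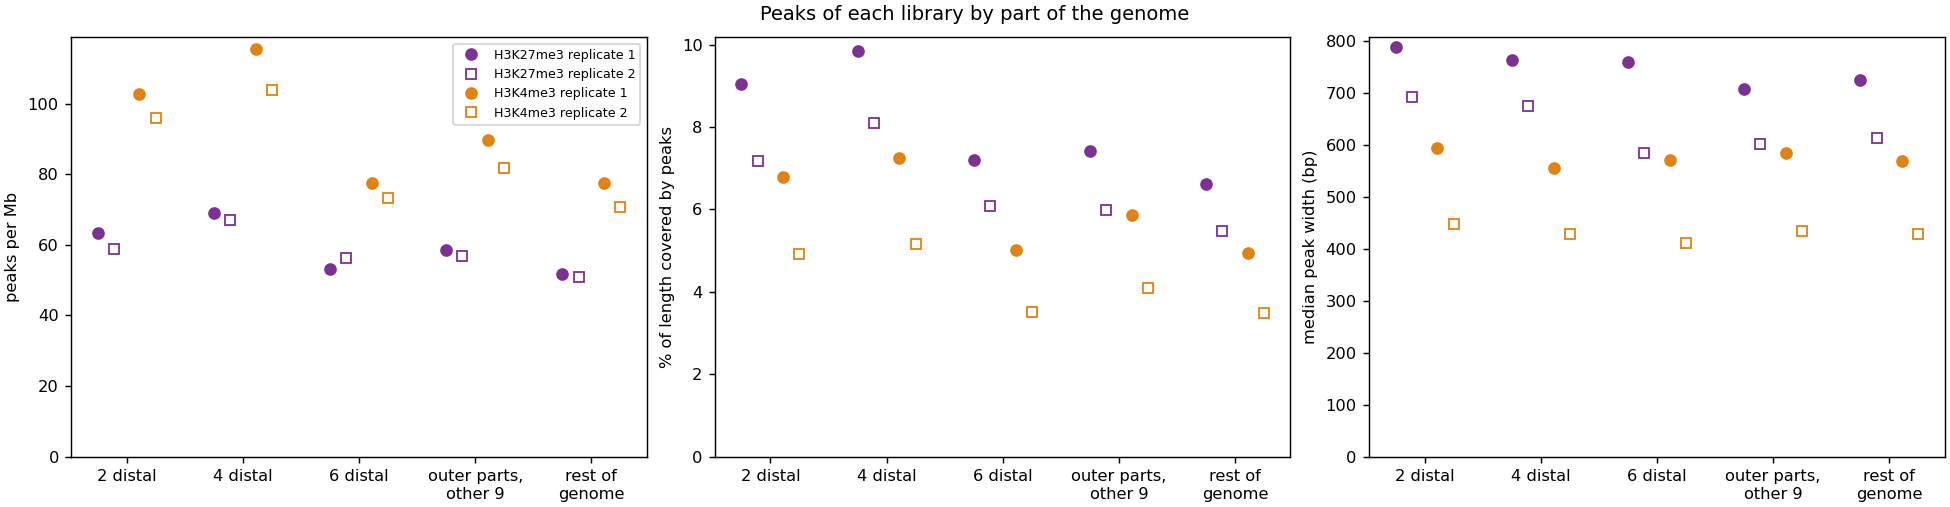
Peaks per Mb (left), percent of length covered by peaks (middle) and median peak width in bp (right) for each of the 4 libraries in the 3 distal parts, the outer parts of the other 9 chromosomes and the rest of the genome. Each point is 1 library, filled circles are replicate 1 and open squares replicate 2. Coverage is highest on chromosome 4 in all 4 libraries (9.85% and 8.10% for H3K27me3, 7.25% and 5.16% for H3K4me3), and chromosome 6 lies near the rest.

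Rice chromosomes are richer in genes towards their ends, so the arms were also set against 126.1 Mb of outer chromosome on the other 9 chromosomes, from the chromosome's midpoint to 1 Mb before its end. Those outer parts had H3K27me3 on 7.41% and 5.98% of their length and H3K4me3 on 5.87% and 4.09%. Chromosome 4 remained above them, at 1.33- and 1.35-fold for H3K27me3 and 1.24- and 1.26-fold for H3K4me3, and so did chromosome 2, at 1.22- and 1.20-fold for H3K27me3 and 1.16- and 1.20-fold for H3K4me3. Chromosome 6 lay below them in H3K4me3, at 0.854- and 0.858-fold, and straddled them in H3K27me3, at 0.970- and 1.01-fold.

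Against the proximal part of its own chromosome, from the chromosome start to the border, the chromosome 4 part stood out most. It had H3K4me3 on 7.25% and 5.16% of its length against 1.74% and 1.16% of the first 17.75 Mb, a 4.16- and 4.43-fold difference, and H3K27me3 on 9.85% and 8.10% against 3.51% and 3.11%, a 2.81- and 2.60-fold difference. On chromosome 2 the pattern between the marks was the other way round, with H3K27me3 at 1.84- and 1.77-fold and H3K4me3 at 1.33- and 1.37-fold over the proximal part. On chromosome 6 the distal part had less H3K4me3 than the proximal part, at 0.916- and 0.912-fold, and more H3K27me3, at 1.19- and 1.15-fold.

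Pair by pair, chromosome 4 exceeded chromosome 6 in covered length by 1.37- and 1.33-fold for H3K27me3 and by 1.45- and 1.47-fold for H3K4me3. Chromosome 2 exceeded chromosome 6 by 1.26- and 1.18-fold for H3K27me3 and by 1.35- and 1.40-fold for H3K4me3. Chromosome 2 was at 0.918- and 0.884-fold of chromosome 4 for H3K27me3 and at 0.935- and 0.951-fold for H3K4me3. With borders moved inward by 500 kb, the mean log2 ratio of H3K27me3 coverage was -0.26 for chromosome 2 over 4 and 0.20 for chromosome 2 over 6. All 6 comparisons went the same way in both libraries, with an exact sign-flip permutation p of 0.5 each.

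The excess over the rest was set side by side for the 2 marks. On chromosome 6 the log2 coverage ratio was 0.12 and 0.15 in the H3K27me3 libraries, against 0.019 and 0.0057 in the H3K4me3 libraries, a difference of 0.125. On chromosome 2 the difference was -0.050 and on chromosome 4 it was 0.016. The libraries of the 2 marks overlapped on none of the 3, but on chromosome 2 only just. There the nearest values were 0.4545 (H3K27me3 replicate 1) and 0.4553 (H3K4me3 replicate 1). On chromosome 4 they were 0.568 (H3K27me3 replicate 2) and 0.562 (H3K4me3 replicate 2). An exact permutation test of 2 against 2 libraries gave p = 0.33 for each chromosome, the smallest it can give. At −log10 q ≥ 5 the differences on chromosomes 2, 4 and 6 were 0.131, 0.173 and 0.170, so the sign on chromosome 2 turned. With the proximal part as the reference they were 0.416, -0.667 and 0.356, so the signs on chromosomes 2 and 4 turned and the order of the 3 changed.

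In steps of 500 kb counted from the proximal border, there were 33 full steps on chromosome 2, 33 on chromosome 4 and 27 on chromosome 6, plus a shorter last step on each. H3K4me3 was spread most evenly along chromosomes 2 and 4. Its regions covered a median of 4.56% of a step on chromosome 2 (lowest 2.12%, highest 6.75%), 4.78% on chromosome 4 (0.631% to 6.97%) and 2.58% on chromosome 6 (0 to 6.57%). The 645 windows of 500 kb in the rest of the genome had a median of 2.69%, which was exceeded in 29 of 33 steps on chromosome 2, 30 of 33 on chromosome 4 and 12 of 27 on chromosome 6. The SD over the mean of the steps was 0.264 on chromosome 2, 0.309 on chromosome 4 and 0.503 on chromosome 6, against 0.607 over the rest of the genome.

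The richest H3K4me3 step of chromosome 2 ran from 32 to 32.5 Mb, with 74 regions, and the poorest from 20 to 20.5 Mb, with 23. On chromosome 4 the richest ran from 24.75 to 25.25 Mb (68 regions) and the poorest was the first, from 17.75 to 18.25 Mb (9 regions). On chromosome 6 the richest ran from 26.3 to 26.8 Mb (62 regions), and the step from 18.3 to 18.8 Mb held no peak in any of the 4 lists. The short last steps of chromosomes 4 and 6 had still more H3K4me3, at 6.98% over 34.25 to 34.5 Mb and 7.31% over 29.8 to 30.2 Mb.

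H3K27me3 was patchier on all 3 arms. Its regions covered a median of 6.30% of a step on chromosome 2 (0.792% to 13.8%), 6.94% on chromosome 4 (0.699% to 16.4%) and 3.67% on chromosome 6 (0 to 17.9%), against a median of 3.56% in the windows of the rest. The SD over the mean was 0.527, 0.579 and 0.795 on chromosomes 2, 4 and 6, against 0.849 in the rest. In each of the 3 parts it was larger than that of H3K4me3 in every pairing of libraries, the nearest values being 0.664 for H3K27me3 replicate 1 and 0.502 for H3K4me3 replicate 2 on chromosome 6.

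The H3K27me3-richest step of the 3 arms was on chromosome 6, from 27.8 to 28.3 Mb. It had 21.9% and 21.2% of its length under H3K27me3 peaks in replicates 1 and 2, and 17.9% under its 69 regions, 4 of them of 5000 bp or more. Only 5 of the 645 windows in the rest of the genome were as high. H3K4me3 regions covered 2.54% of the same step, close to the median of chromosome 6. On chromosome 4 the richest step ran from 19.25 to 19.75 Mb (53 regions, 16.4%), and on chromosome 2 from 27.5 to 28 Mb (36 regions, 13.8%, 5 of them of 5000 bp or more). The poorest were 19 to 19.5 Mb on chromosome 2 (9 regions) and 23.75 to 24.25 Mb on chromosome 4 (6 regions), and that step of chromosome 4 was the second richest of its arm in H3K4me3, at 6.96%. The short last step of chromosome 2, from 34.5 to 34.9 Mb, had H3K27me3 regions on 15.3% of its length.

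**Figure D2:**
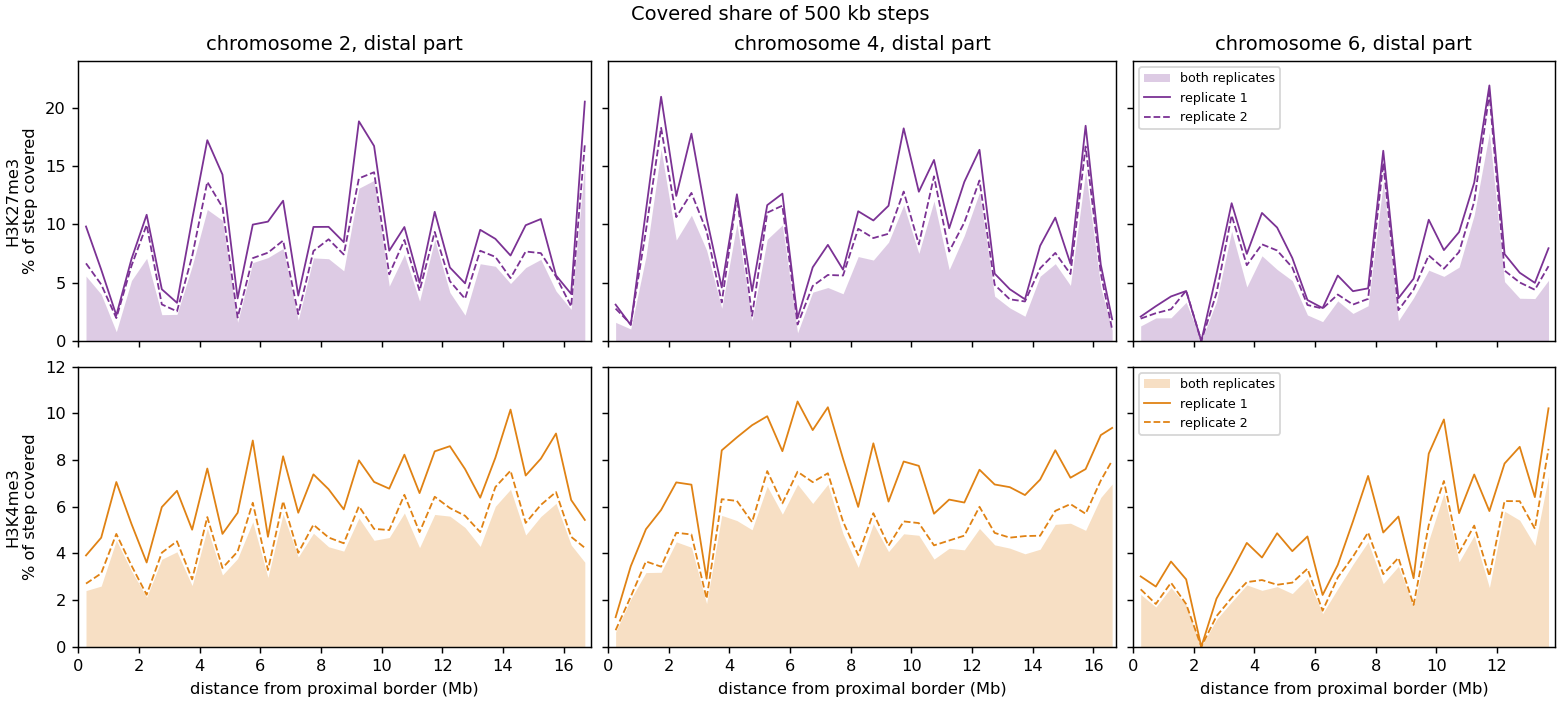
Percent of each 500 kb step covered by H3K27me3 (top) and H3K4me3 (bottom) along the distal parts of chromosomes 2, 4 and 6, against distance from the proximal border in Mb. Lines are replicates 1 and 2 and the shaded area is the length covered in both. H3K27me3 runs in separate peaks up to 21.9% and 21.2% of a step on chromosome 6. H3K4me3 on chromosome 6 rises unevenly, with dips, towards the distal border of the part.

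Replicates followed each other closely along the arms. Across full steps, Pearson's r between the covered shares of the replicates was 0.977, 0.971 and 0.989 for H3K27me3 and 0.978, 0.960 and 0.974 for H3K4me3 on chromosomes 2, 4 and 6. These are descriptions over 33, 33 and 27 neighbouring steps. The step profiles above were thus alike in both lists of a mark. Whether each list was called from its own library is not given, so the likeness cannot show independent support.

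Each arm was also divided into 3 equal stretches from the proximal border outwards. On chromosome 6 both marks were densest in the outermost stretch. H3K4me3 had 47.7, 68.6 and 116.3 peaks per Mb from the innermost to the outermost stretch in replicate 1 and 42.7, 65.6 and 111.6 in replicate 2, and H3K27me3 had 42.1, 48.1 and 69.5 in replicate 1 and 43.8, 50.3 and 74.5 in replicate 2. On chromosomes 2 and 4 the marks ran in opposite directions in peak number. H3K4me3 had 85.4, 105.1 and 118.0 peaks per Mb on chromosome 2 and 101.2, 122.3 and 123.2 on chromosome 4 in replicate 1, and 78.3, 98.3 and 110.9, and 88.3, 111.2 and 111.9, in replicate 2. H3K27me3 had 69.2, 62.8 and 57.9 on chromosome 2 and 75.6, 69.9 and 61.6 on chromosome 4 in replicate 1, and 63.0, 58.0 and 55.2, and 74.1, 69.5 and 57.5, in replicate 2. In the outermost stretch the 3 chromosomes were close in H3K4me3, so the shortfall of chromosome 6 lay in the inner and middle stretches. In H3K27me3 the outermost stretch of chromosome 6 had more peaks per Mb than those of chromosomes 2 and 4 in both libraries. With covered length in place of peak number, H3K27me3 was highest in the middle stretch of chromosomes 2 and 4 in both libraries, at 10.5% and 8.34% on chromosome 2 and 10.8% and 8.65% on chromosome 4. H3K4me3 coverage on chromosome 4 was likewise highest in the middle stretch, at 8.11% and 5.71%, against 7.33% and 5.47% in the outermost. So the marks did not run in opposite directions there in covered length. On chromosome 2 H3K4me3 coverage was highest in the outermost stretch, at 7.79% and 5.84%.

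The 2 marks were only loosely related from step to step on chromosomes 2 and 4, and somewhat more closely on chromosome 6. Spearman's rho between the share covered by H3K27me3 regions and that covered by H3K4me3 regions was 0.193 on chromosome 2 (n = 33 steps), -0.064 on chromosome 4 (n = 33) and 0.363 on chromosome 6 (n = 27, and 0.287 over the 26 steps that hold peaks). In steps of 1 Mb rho was 0.153, -0.05 and 0.544 on chromosomes 2, 4 and 6 (n = 16, 16 and 13). Pairings of single libraries in 500 kb steps gave 0.118 to 0.171, -0.167 to -0.010 and 0.332 to 0.490 on these chromosomes. Steps share their libraries and neighbours, so these are descriptions. H3K27me3 covered more of the step than H3K4me3 in 22 of 33 steps on chromosome 2, 21 of 33 on chromosome 4 and 16 of 27 on chromosome 6, against 383 of 645 windows (59.4%) in the rest.

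**Figure D3:**
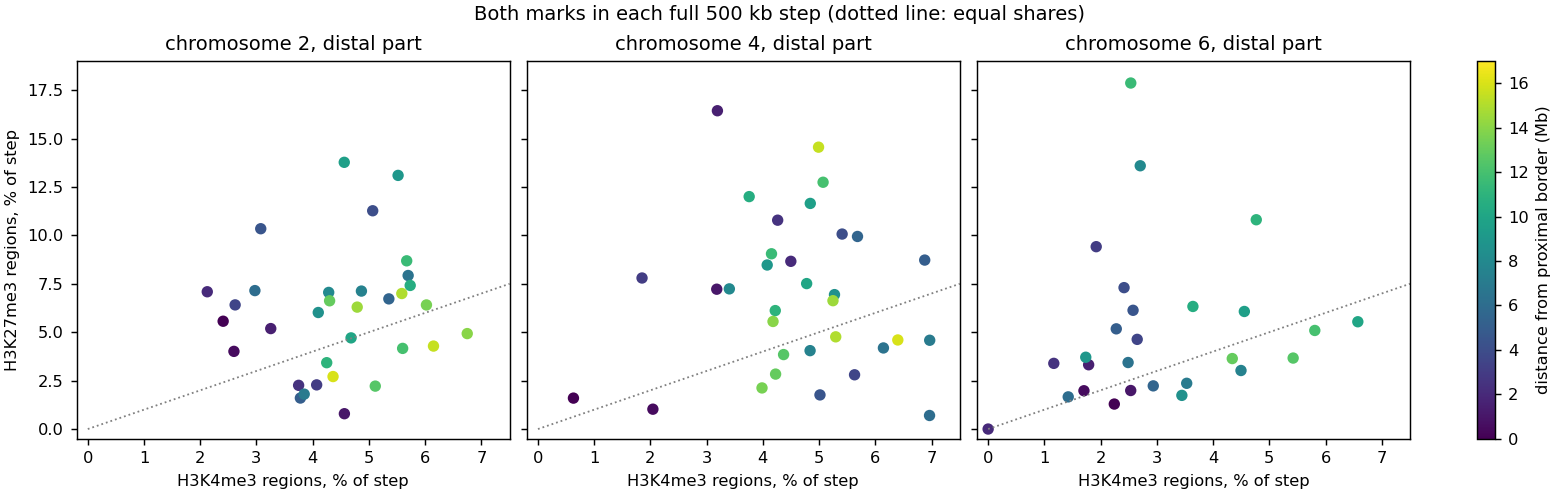
Share of each full 500 kb step covered by H3K27me3 regions (vertical axis, %) against the share covered by H3K4me3 regions (horizontal axis, %) in the 3 distal parts, coloured by distance from the proximal border in Mb; the dotted line marks equal shares. Points lie above the line in 22 of 33, 21 of 33 and 16 of 27 steps on chromosomes 2, 4 and 6, and the step at the origin on chromosome 6 is the one without peaks.

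Peak width separated H3K27me3 more than H3K4me3. The median H3K27me3 peak measured 788.5 bp and 692 bp on chromosome 2 and 764.5 bp and 676 bp on chromosome 4 in replicates 1 and 2, against 726 bp and 613 bp in the rest of the genome. These are mean differences of 70.8 ± 11.7 bp and 50.8 ± 17.3 bp (SD, n = 2 libraries, exact sign-flip permutation p = 0.5 each), and at −log10 q ≥ 5 they were 428 bp and 367.5 bp. On chromosome 6 the medians were 759.5 bp and 585 bp, above the rest in replicate 1 and below it in replicate 2. For H3K4me3 the medians were 595 bp and 448.5 bp on chromosome 2, 555.5 bp and 428 bp on chromosome 4 and 572 bp and 411 bp on chromosome 6, against 569 bp and 429 bp in the rest. Chromosome 2 was above the rest in both libraries, by 22.8 ± 4.60 bp, and the differences of chromosomes 4 and 6 were -7.25 ± 8.84 bp and -7.50 ± 14.8 bp, within the spread between libraries.

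Long H3K27me3 peaks accounted for more of the mark on all 3 arms than in the rest of the genome, least so on chromosome 6. Peaks of 5000 bp or more held 28.4% and 18.8% of H3K27me3 peak bases on chromosome 2, 30.1% and 18.1% on chromosome 4 and 25.6% and 17.2% on chromosome 6, against 22.6% and 15.7% in the rest of the genome. The 2 libraries moved the same way on each chromosome, with mean differences of 4.46 ± 1.96, 4.98 ± 3.63 and 2.24 ± 1.16 percentage points (SD, n = 2, exact sign-flip permutation p = 0.5 each), and the size of the excess was larger in replicate 1 on each. Such peaks numbered 3.14 and 1.89 per Mb on chromosome 2, 3.64 and 1.97 per Mb on chromosome 4 and 2.23 and 1.22 per Mb on chromosome 6, against 1.80 and 1.15 per Mb in the rest. The outer parts of the other 9 chromosomes had 22.1% and 16.6% of bases in such peaks, at 1.97 and 1.29 per Mb. Chromosome 6 replicate 2, with 17 such peaks, was thus close to them in share and lower in number. In regions covered in both replicates the class held 16.1% of bases on chromosome 6, against 15.8% in the rest.

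Among regions covered in both replicates, the class from 2000 to under 5000 bp took a larger share on chromosomes 2 and 4. It made up 117 of 881 regions on chromosome 2 (13.3%, 95% Wilson interval 11.2 to 15.7%), 128 of 964 on chromosome 4 (13.3%, 11.3 to 15.6%) and 67 of 673 on chromosome 6 (9.96%, 7.92 to 12.4%), against 1462 of 13896 in the rest (10.5%, 10.02 to 11.04%). These intervals and those below cover counting error only, and neighbouring regions are not independent. Regions of 5000 bp or more numbered 26, 26 and 14 on chromosomes 2, 4 and 6, which is 2.95%, 2.70% and 2.08% of the regions against 2.20% in the rest. Regions under 500 bp made up 39.3%, 39.5% and 44.3%, against 42.4%. The interval of chromosome 6 for the class from 2000 to under 5000 bp thus overlapped that of the rest, and those of the 2 richer arms lay above it.

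**Figure D4:**
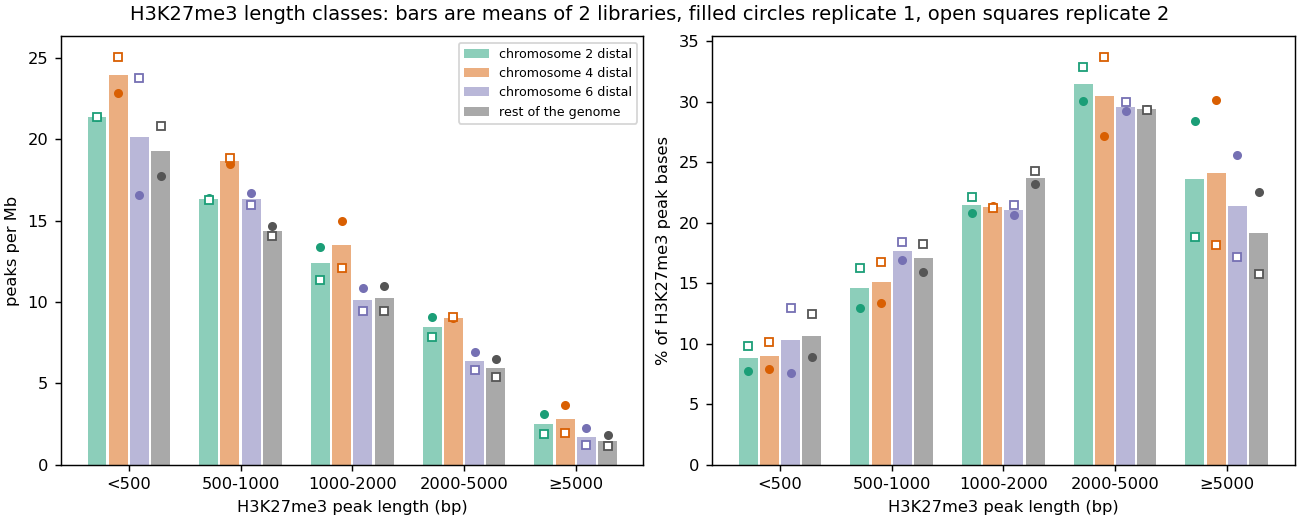
H3K27me3 peaks per Mb (left) and percent of H3K27me3 peak bases (right) in 5 classes of peak length (bp) for the distal parts of chromosomes 2, 4 and 6 and the rest of the genome. Bars are means of 2 libraries, filled circles replicate 1 and open squares replicate 2. In the class of 5000 bp or more the 3 arms lie above the rest in both libraries (28.4% and 18.8%, 30.1% and 18.1%, and 25.6% and 17.2% of bases, against 22.6% and 15.7%).

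The longest H3K27me3 regions show what these domains look like. On chromosome 4 the longest was chr4:33478454-33497137, 18684 bp, with 2 H3K4me3 regions on 3.61% of it. It lies in the step from 33.25 to 33.75 Mb, which had H3K27me3 regions on 14.6% of its length and the largest share of H3K4me3 regions touching H3K27me3 on that arm (20 regions, 37.0%). Next came chr4:27283663-27297777 (14115 bp, 2 H3K4me3 regions) and chr4:30126729-30139642 (12914 bp, 1 H3K4me3 region). On chromosome 2 the longest was chr2:24823392-24837801, 14410 bp, with 1 H3K4me3 region on 2.03% of it. The next, chr2:27313240-27323298 (10059 bp) and chr2:27940189-27949721 (9533 bp), held no H3K4me3 peak of either library. The last of these had a fold enrichment, as the authors' caller gave it, in the 99.8th percentile of both H3K27me3 lists, and lies in the richest step of its arm. On chromosome 6, chr6:24449849-24461668 (11820 bp, 2 H3K4me3 regions) and chr6:24314897-24325214 (10318 bp, 1 H3K4me3 region) both lie in the step from 24.3 to 24.8 Mb, the second richest in H3K27me3 on that arm at 13.6%, and chr6:19742353-19753860 (11508 bp) held no H3K4me3 region.

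The 3 widest H3K4me3 regions of each arm measured 1689 to 2214 bp. On chromosome 2 they were chr2:25133639-25135586 (1948 bp), chr2:33569454-33571247 (1794 bp) and chr2:32314102-32315894 (1793 bp), the last of them in the richest H3K4me3 step of that arm. On chromosome 4 they were chr4:24095903-24098116 (2214 bp), chr4:25927555-25929642 (2088 bp) and chr4:27078127-27079933 (1807 bp). On chromosome 6 they were chr6:26690755-26692652 (1898 bp) and chr6:26563643-26565368 (1726 bp), both in the richest H3K4me3 step of that arm, and chr6:20251823-20253511 (1689 bp). None of the 9 touched an H3K27me3 region, although chr6:26690755-26692652 overlapped a peak of H3K27me3 replicate 1 alone, which ranked in the 6.53rd percentile of fold in its list, and chr2:25133639-25135586 lay 1412 bp from an H3K27me3 region. Of all H3K4me3 regions, 12.9% to 15.3% on these arms and 13.9% over the genome touched one, and 9 regions are few beside such shares.

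The share of H3K4me3 peaks touching H3K27me3 was near that of the genome on all 3 arms. Over the whole lists, 14.9% of H3K4me3 replicate 1 peaks and 14.8% of replicate 2 peaks touched an H3K27me3 region by at least 1 bp. In the distal part of chromosome 2 it was 237 peaks or 13.6% (95% Wilson interval 12.1 to 15.3%) and 223 peaks or 13.8% (12.2 to 15.5%), and on chromosome 4 it was 267 peaks or 13.8% (12.3 to 15.4%) and 239 peaks or 13.7% (12.2 to 15.4%). On chromosome 6 it was 174 peaks or 16.1% (14.1 to 18.5%) and 165 peaks or 16.2% (14.1 to 18.6%), against 15.0% and 14.9% in the rest of the genome. The differences from the rest were -1.27 ± 0.13, -1.20 ± 0.0022 and 1.20 ± 0.072 percentage points (SD, n = 2 libraries sharing the same H3K27me3 regions, exact sign-flip permutation p = 0.5 each). In each library, the Wilson interval of each arm included the share in the rest. Against the outer parts of the other 9 chromosomes the differences of chromosomes 2 and 4 were -0.162 and -0.096 points, with the libraries on opposite sides, and that of chromosome 6 was 2.30 points. At −log10 q ≥ 5 the differences of chromosomes 2 and 4 turned, to 0.606 and 0.097 points, and with H3K27me3 replicate 1 alone that of chromosome 6 turned, to -0.022 points.

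Counted over regions covered in both replicates, 196 of 1525 H3K4me3 regions on chromosome 2 (12.9%), 215 of 1642 on chromosome 4 (13.1%) and 144 of 939 on chromosome 6 (15.3%) touched H3K27me3, against 14.03% in the rest and 13.9% over the genome. From the other side there was no such order: 19.2%, 19.3% and 19.3% of H3K27me3 regions touched H3K4me3, against 19.5% in the rest and 19.5% over the genome. On chromosome 6 the share of H3K4me3 regions touching H3K27me3 was 21.5% in the innermost stretch, 15.5% in the middle and 12.8% in the outermost.

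Stretches with both marks were short on every arm. The longest were chr6:20833306-20834370 (1065 bp) and chr6:25784765-25785707 (943 bp), chr4:29366639-29367596 (958 bp) and chr4:23530569-23531446 (878 bp), and chr2:24683767-24684638 (872 bp) and chr2:25730594-25731433 (840 bp). In chr6:20833306-20834370 the 2 H3K27me3 libraries disagreed on strength, with the peak in the 85.9th percentile of fold in replicate 1 and in the 2.79th in replicate 2.

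Over the whole lists, 67.2% and 79.8% of H3K27me3 peaks and 79.4% and 93.3% of H3K4me3 peaks of replicates 1 and 2 overlapped a peak of the other replicate by at least 1 bp. H3K27me3 replicate 1 peaks were shared in 73.0% of cases on chromosome 6 (95% Wilson interval 69.7 to 76.0%), 66.4% on chromosome 4 (63.7 to 69.1%) and 64.9% on chromosome 2 (62.0 to 67.7%), against 67.2% in the rest (66.5 to 67.9%). H3K27me3 replicate 2 peaks were shared in 80.9% of cases on chromosome 6 (78.0 to 83.5%), 80.5% on chromosome 4 (78.1 to 82.7%) and 83.9% on chromosome 2 (81.5 to 86.0%), against 79.4% in the rest (78.8 to 80.0%). So chromosome 6 led in replicate 1 and chromosome 2 in replicate 2, and the mean differences from the rest were 3.63 ± 3.03 points on chromosome 6, 0.149 ± 1.29 on chromosome 4 and 1.06 ± 4.80 on chromosome 2, the last 2 with libraries on opposite sides. At −log10 q ≥ 5 the chromosome 6 difference was -0.925 points and that of chromosome 4 was 3.82 points.

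H3K4me3 peaks of replicates 1 and 2 were shared in 81.7% (79.8 to 83.5%) and 93.5% (92.2 to 94.6%) of cases on chromosome 2, 78.4% (76.5 to 80.1%) and 93.3% (92.1 to 94.4%) on chromosome 4 and 79.1% (76.6 to 81.4%) and 91.5% (89.6 to 93.0%) on chromosome 6, against 79.3% and 93.3% in the rest. Which mark differed more between the arms depended on the overlap asked for. With at least 50% overlap, H3K4me3 sharing on chromosome 6 lay 3.78 points below the rest, and chromosomes 2 and 4 exceeded chromosome 6 by 6.36 and 4.27 points. For H3K27me3 chromosomes 2 and 4 then differed from chromosome 6 by -1.39 and -2.21 points. The 2 shares of a mark are not independent, since both count the same pairs of peaks.

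Split by fold, the arms differed in sharing among the weak peaks of H3K27me3 replicate 1. Among peaks in the lowest of 4 equal groups of the list by fold, 44.3% (37.0 to 51.9%) were shared on chromosome 6, 33.9% (29.0 to 39.2%) on chromosome 4 and 28.3% (23.5 to 33.7%) on chromosome 2, against 32.0% (30.6 to 33.5%) in the rest. In the highest group it was 95.7%, 94.1% and 93.0%, against 93.4%. H3K27me3 replicate 2 did not repeat this order. In its lowest group 72.8% (66.4 to 78.4%) were shared on chromosome 6 and 68.7% (63.2 to 73.7%) on chromosome 4. On chromosome 2 it was 75.6% (69.9 to 80.6%), against 70.0% in the rest, and the intervals of the 3 arms overlapped.

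**Figure D5:**
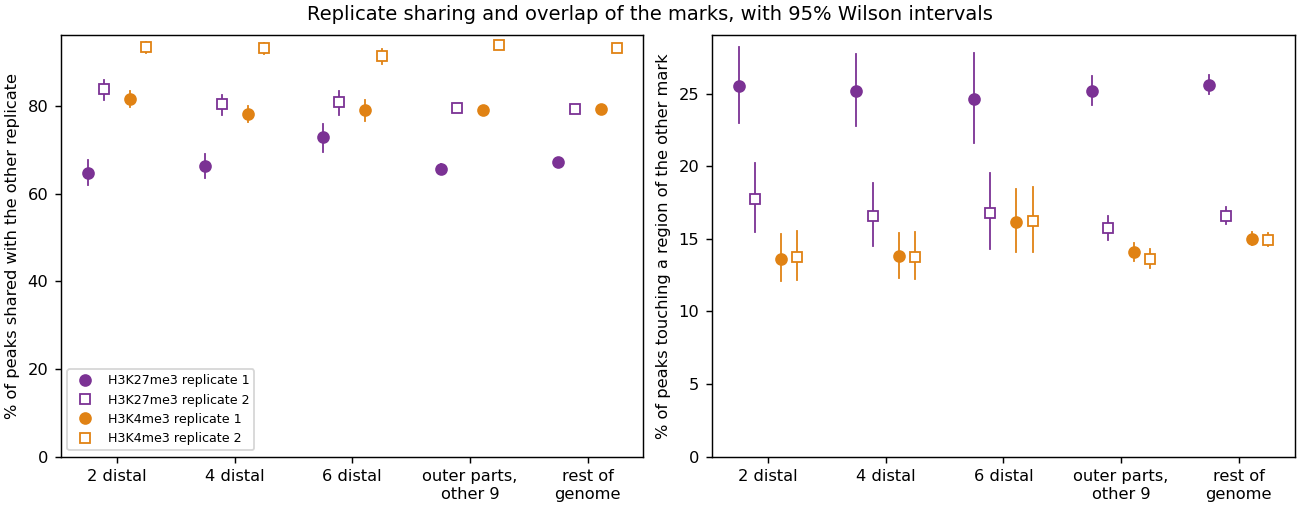
Percent of peaks shared with the other replicate (left) and percent touching a region of the other mark (right) for each library in the 3 distal parts, the outer parts of the other 9 chromosomes and the rest of the genome, with 95% Wilson intervals, which cover counting error only. H3K27me3 replicate 1 is highest on chromosome 6 at 73.0%, and the H3K4me3 peaks of chromosome 6 touch H3K27me3 in 16.1% and 16.2% of cases, against 15.0% and 14.9% in the rest.

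Stretches of 50 kb or more without an H3K4me3 region took up less of the richer arms. This is not independent of density, since chromosomes 2, 4 and 6 had 90.2, 98.0 and 67.6 H3K4me3 regions per Mb. There were 29 on chromosome 2 (13.3% of the part), 24 on chromosome 4 (13.3%) and 42 on chromosome 6 (28.1%), against 33.8% of the rest of the genome. On chromosomes 2 and 4 H3K27me3 regions covered 5.57% and 5.96% of these stretches, not far below the 6.17% and 6.79% of the whole arms. On chromosome 6 they covered 2.77% of them, against 5.02% of the arm, and in the rest of the genome 2.83%, against 4.50%. The longest on chromosome 4, chr4:20955343-21215079 (259737 bp), held 26 H3K27me3 regions on 13.5% of its length, and the longest on chromosome 2, chr2:21667654-21842059 (174406 bp), held 18 on 10.5%.

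The longest on chromosome 6, chr6:18165268-18806991 (641724 bp), was the longest on the 12 chromosomes and differed in kind. Its 3 H3K27me3 regions covered 0.104% of it, H3K4me3 replicate 1 had 1 peak there and replicate 2 none, and over chr6:18216100-18805134 (589035 bp) none of the 4 lists had a peak. The reason for the lack of peaks was not tested.

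The borders of the parts were not all at a change in the marks. At the proximal border of chromosome 2, the 500 kb inside held 36 and 40 H3K27me3 peaks (replicates 1 and 2) and the 500 kb outside 14 and 11, while H3K4me3 had 32 and 31 inside and 30 and 28 outside. At that of chromosome 4 there were 25 and 19 H3K27me3 peaks inside and 27 and 30 outside, and 14 and 10 H3K4me3 peaks inside and 5 and 5 outside. At that of chromosome 6 there were 12 and 15 H3K27me3 peaks inside and 12 and 13 outside, and 30 and 28 H3K4me3 peaks inside and 17 and 15 outside. At the distal borders H3K4me3 numbered 46 and 44 peaks inside and 87 and 90 outside on chromosome 2, 72 and 72 inside and 78 and 73 outside on chromosome 4, and 74 and 85 inside and 40 and 36 outside on chromosome 6. H3K27me3 numbered 45 and 46 inside and 24 and 21 outside on chromosome 2, 16 and 12 inside and 14 and 13 outside on chromosome 4, and 29 and 25 inside and 17 and 16 outside on chromosome 6.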

How the data were processed

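The deposited files are 1 peak list for each of the 4 immunoprecipitated libraries, with narrow H3K4me3 and broad H3K27me3 peaks, and give start, end, score and significance per peak. Per the submitters' processing notes, MACS2, Bowtie2, fastp, SAMtools, Picard and deepTools were used. Not given in the sources used here are versions, thresholds, control and genome build, and whether each list was called from its own library. Peak names carry different tags in the 4 deposited lists (merge, uniq and subsample among them), so the libraries may have been handled differently before calling. The deposited fold enrichment is a ratio to background that the authors' caller wrote, and it served only to rank peaks within a list. The −log10 p and −log10 q values are those of the authors' caller, and a minimum −log10 q of 5 was an alternative threshold. The deposited score was not used. Read depth is unknown.

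Peak intervals were analysed in Python 3.11.15 with numpy 2.4.6, tests and intervals with scipy 1.17.1, figures with matplotlib 3.10.9, and the code was tested on simulated lists. Peaks and regions were assigned by midpoint. Chromosome lengths were the last peak end over the 4 lists. Overlap meant at least 1 bp, a region the bases covered in both replicates. Density and coverage were compared as log2 ratios within a library, other measures as differences. Tests were exact sign flips over 2 libraries and exact permutations of 2 against 2. Groups and replicate numbers came from the sample titles.

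The members, measures and lists were chosen with earlier results of these data known. By rule, the text names for each part the 3 longest H3K27me3 regions, the 3 widest H3K4me3 regions, the 2 longest stretches with both marks, the richest and poorest full 500 kb step of each mark and the longest stretch without H3K4me3 regions. Other steps and stretches named were chosen after their values were seen. No gene is named, because the gene table used here lies on another assembly, and coordinates were not converted. Alternatives were the threshold above, leaving out each replicate, 2 other references (the outer parts of the other 9 chromosomes and the proximal part of the same chromosome), borders moved inward by 500 kb, stricter overlap, peaks merged within 500 bp, a class of 2000 bp or more, steps of 1 Mb and a replicate block.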

Additional observations from a re-analysis of the deposited data

Results flagged for a closer look

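Some effects pointed opposite ways in every library of the groups compared. None of these differences was tested, and all come from 2 libraries a mark. The median H3K4me3 peak was wider than in the rest of the genome by 22.75 bp on chromosome 2, against -7.25 bp on chromosome 4. The share of H3K4me3 peaks touching H3K27me3 regions differed from the rest by -1.27 percentage points on chromosome 2 and by -1.20 points on chromosome 4, against 1.20 points on chromosome 6. H3K4me3 replicate sharing differed from the rest by 1.30 points on chromosome 2, against -1.02 points on chromosome 6. Between the marks, the width difference on chromosome 4 was 50.75 bp for H3K27me3, against -7.25 bp for H3K4me3. Replicate sharing on chromosome 6 differed from the rest by 3.63 points for H3K27me3, against -1.02 points for H3K4me3.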

How the results depend on the processing

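Of 379 alternative values over 66 results, 339 kept the sign of the reported value, though 122 of these were over 1.5 times larger or smaller. Part of the 339 could not have changed sign. Where both libraries of a mark went 1 way, leaving out 1 of them gives a value of that same sign. The replicate block, and for measures other than density and coverage the chromosome 6 step without peaks, leave the value as it was. The 339 are therefore not independent checks. The other 40 had the opposite sign, 22 of them in results where the libraries had gone 1 way and 18 where they had lain on opposite sides. The excess of chromosomes 2 and 4 in density and coverage of both marks kept its direction under every alternative run. The causes of the changes below were not tested. Against the outer parts of the other 9 chromosomes, the chromosome 6 log2 ratios were -0.186 (H3K4me3 density), -0.224 (H3K4me3 coverage), -0.079 (H3K27me3 density) and -0.011 (H3K27me3 coverage), and the difference between the marks on chromosome 2 was 0.038. Against the proximal part of the same chromosome, they were -0.098 for H3K4me3 density and -0.130 for its coverage on chromosome 6. That reference also gave 1.52 points of H3K4me3 overlap on chromosome 2, and on chromosome 4 26.75 bp of H3K4me3 width, 1.85 and 2.61 points of H3K4me3 and H3K27me3 sharing. The differences between the marks were then 0.416 on chromosome 2 and -0.667 on chromosome 4. With borders moved inward by 500 kb, H3K4me3 on chromosome 6 was at -0.024 in density and -0.045 in coverage.

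With −log10 q ≥ 5, the H3K4me3 overlap difference from the rest was 0.606 points on chromosome 2 and 0.097 on chromosome 4, and chromosome 2 minus 6 was 0.068. H3K27me3 sharing differed by 3.82 points on chromosome 4 and -0.925 on chromosome 6, and chromosome 4 minus 6 was 4.75. H3K4me3 coverage on chromosome 6 was at -0.011, H3K27me3 width was 428, 367.5 and 76.25 bp above the rest on chromosomes 2, 4 and 6, and the marks differed by 0.131 on chromosome 2. At 50% overlap H3K4me3 sharing on chromosome 4 differed by 0.488 points from the rest and by 4.27 from chromosome 6. With peaks merged within 500 bp, the share of bases in H3K27me3 peaks of 5000 bp or more on chromosome 4 minus that on chromosome 6 was -0.571 points.

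Leaving out 1 replicate at a time, the H3K4me3 overlap difference of chromosome 6 ran between -0.022 (without H3K27me3 replicate 2) and 1.25 points. H3K27me3 width on chromosome 6 ran between -28 and 33.5 bp, and the excess of bases in peaks of 5000 bp or more on chromosome 4 between 2.42 and 7.55 points. Sharing needs both replicates and has no such value. No label ties same-numbered libraries of the 2 marks, so the numbers were not taken as pairs. As a replicate block they left the differences between the marks at -0.050, 0.016 and 0.125 on chromosomes 2, 4 and 6, with an exact sign-flip permutation p of 0.5, the smallest possible. The chromosome 6 step without peaks, chosen after the data were seen, was also left out in the 31 results it touches. It holds no peak, so width, length-class, overlap and sharing values stayed as they were. Density and coverage moved only through the shorter length, as for H3K4me3 density over the rest, from a log2 ratio of 0.026 to 0.079. No direction changed, but this says little about how stable the results are. Unknown read depth limits every count of peaks, and a missing peak does not show a missing mark.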

Other observations

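Long H3K27me3 regions on the 3 arms often carried H3K4me3 somewhere along them. This comparison was chosen after the data were seen. Of the regions of 5000 bp or more, 18 of 26 on chromosome 2, 16 of 26 on chromosome 4 and 8 of 14 on chromosome 6 touched an H3K4me3 region, 42 of 66 in all (63.6%, 95% Wilson interval 51.6 to 74.2%), against 143 of 306 in the rest of the genome (46.7%, 41.2 to 52.3%). In the outer parts of the other 9 chromosomes it was 72 of 140 (51.4%, 43.2 to 59.6%), an interval that overlaps that of the arms. Over the whole genome it was 185 of 372 (49.7%). H3K4me3 occupied 5.06%, 4.41% and 2.97% of the bases of such regions on chromosomes 2, 4 and 6, against 3.49% in the rest, so chromosome 6 was below it. Over the 4 pairings of single libraries the touched share of such peaks was 59.3% to 67.1% on the arms, against 53.6% to 56.8% in the rest, so the gap was smaller than with regions. H3K4me3 regions were also denser on the arms, at 86.4 per Mb, than in the outer parts (77.4) and the rest (66.4). The effect of that density on touching was not tested. The intervals cover counting error only, and no test was made.

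The H3K27me3 peaks found in replicate 2 alone nearly all lay away from H3K4me3 on these arms too. Of them, 6 of 160 on chromosome 2, 0 of 219 on chromosome 4 and 1 of 149 on chromosome 6 touched an H3K4me3 region, against 41 of 3404 in the rest. Of those found in replicate 1 alone, 99 of 376, 103 of 388 and 54 of 200 did, against 1572 of 5513 in the rest. Over the whole lists, 25.5% of H3K27me3 replicate 1 peaks and 16.7% of replicate 2 peaks touched an H3K4me3 region. Only the replicate 2 counts thus lay far below their list. Median widths on chromosomes 2, 4 and 6 were 344.5, 340 and 324 bp for replicate 2 alone. Its shared peaks measured 840, 846 and 695 bp. For replicate 1 alone they were 406.5, 432 and 415.5 bp, against 1187.5, 1135.5 and 953.5 bp for its shared peaks. The effect of width was not tested. For the 0 of 219, the upper 95% Wilson bound is 1.72%.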
